A study of Saccharomyces cerevisiae with 12 samples.

Results

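The transcripts described here are non-coding RNAs of budding yeast, Saccharomyces cerevisiae, that begin shortly after the 3′ end of a small nucleolar RNA (snoRNA) on the same strand. They were taken from the deposited table by position alone: every cryptic unstable transcript (CUT), SUT, XUT, mSUT or MUT whose 5′ end lies 0 to 500 nt past the 3′ end of a snoRNA. The rule found 31 of 5022 such non-coding transcripts, in a table of 12026 features. All 31 are CUTs, out of 925 CUTs in the table, and they follow 27 of its 77 snoRNAs. Total RNA was sequenced from 6 groups of 2 biological replicates each: wild type given FU, the rrp6 deletion mutant and untreated wild type, each at 40 min and again at 100 min after synchronization. Only the title of the series spells FU out, as 5-fluorouracil. The mutant's genotype is given as rrp6-delta, and the sources used here do not give the strain background, the dose and timing of FU or the way cells were synchronized.

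Most snoRNAs guide the chemical modification of rRNA: box C/D snoRNAs direct 2′-O-methylation and box H/ACA snoRNAs direct pseudouridylation. In budding yeast, for most snoRNA genes, RNA polymerase II passes the snoRNA end and is stopped by Nrd1, Nab3 and the helicase Sen1, the same machinery that ends CUTs. The nuclear exosome, helped by the TRAMP complex, then trims the RNA past the snoRNA end back to the mature end, and destroys CUTs. Rrp6 is the exonuclease particular to the nuclear form of the exosome, and yeast that lacks it is known to keep 3′ extended snoRNAs and CUTs. FU is an anti-cancer drug that is also built into RNA, and yeast with reduced exosome activity is known to be hypersensitive to it.

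The 31 CUTs started 49 to 418 nt past the snoRNA end, with a median of 177 nt, and were 105 to 1097 nt long, with a median of 201 nt. They lie on 13 chromosomes, 17 on the plus and 14 on the minus strand. Of the 27 snoRNAs, 17 are H/ACA and 10 are C/D, whereas the whole table holds 29 H/ACA, 45 C/D and 3 other snoRNAs. SNR9, SNR10, SNR11 and SNR71 are each followed by 2 of the CUTs and the other 23 snoRNAs by 1. CUT676 lies in range of both SNR128 and SNR190, and CUT748 of both SNR61 and SNR55, so each was paired with the nearer one, SNR128 and SNR61. None of the 31 shares a nucleotide with a gene, snoRNA, tRNA or snRNA on its own strand, and 20 lie opposite 17 protein-coding genes. Of the 31, 11 share at least 1 nt with a neighbouring CUT or XUT of their strand, mostly where 2 CUTs abut, so their values are not wholly independent.

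Nrd1 and Nab3 are known to act on the RNA just past a snoRNA end. The first 120 nt past the end are shown for 8 snoRNAs on which the results below turn, in RefSeq's R64 sequence and in the sense of the snoRNA. Capitals mark the 4-letter cores that Nrd1 (GTAA and GTAG) and Nab3 (TCTT) are known to bind in RNA, in DNA letters, and overlapping cores were each counted.
SNR11 (chr13:652533-652652, plus strand): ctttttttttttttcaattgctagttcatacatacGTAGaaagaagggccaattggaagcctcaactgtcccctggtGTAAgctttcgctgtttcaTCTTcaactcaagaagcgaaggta
SNR10 (chr7:346231-346350, plus strand): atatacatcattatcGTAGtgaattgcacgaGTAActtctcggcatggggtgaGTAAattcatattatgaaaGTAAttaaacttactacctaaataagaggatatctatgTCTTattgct
SNR71 (chr8:411318-411437, plus strand): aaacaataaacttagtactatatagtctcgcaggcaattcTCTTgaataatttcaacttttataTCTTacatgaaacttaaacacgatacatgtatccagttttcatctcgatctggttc
SNR46 (chr7:545567-545686, plus strand): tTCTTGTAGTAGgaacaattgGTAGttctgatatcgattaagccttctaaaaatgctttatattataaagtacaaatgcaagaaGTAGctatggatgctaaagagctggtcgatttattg
SNR66 (chr14:586176-586295, plus strand): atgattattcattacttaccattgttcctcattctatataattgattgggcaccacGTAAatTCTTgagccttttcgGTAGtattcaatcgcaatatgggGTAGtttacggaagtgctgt
SNR45 (chr16:821904-822023, plus strand): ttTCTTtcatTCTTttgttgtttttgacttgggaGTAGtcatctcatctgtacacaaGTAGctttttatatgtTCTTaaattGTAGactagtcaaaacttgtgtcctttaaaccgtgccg
SNR37 (chr10:227974-228093, minus strand): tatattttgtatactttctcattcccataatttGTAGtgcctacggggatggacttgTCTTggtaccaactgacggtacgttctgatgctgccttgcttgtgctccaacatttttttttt
SNR40 (chr14:89307-89426, plus strand): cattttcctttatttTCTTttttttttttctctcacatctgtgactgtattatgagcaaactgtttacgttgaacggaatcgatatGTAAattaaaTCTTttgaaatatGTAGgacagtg
TCTT occurred in all 27 of these windows (100%), against 82% of the windows past the other 50 snoRNAs and 58.8% of those past 5738 protein-coding genes. GTAA or GTAG occurred in 22 of the 27 windows (81.48%), against 62% past the other snoRNAs and 59.52% past genes. On the opposite strand, TCTT was in 9 of the 27 windows (33.33%) and in 50.51% of the windows past genes. The opposite strand held GTAA or GTAG in 70.37% of the 27 windows and 63.16% of the gene windows. Mean AT content was 64.81% past the paired snoRNAs, 68.97% past the others and 69.53% past genes. SNR71, which precedes the most abundant of the CUTs, has no GTAA or GTAG in its window. These matches describe letters only, and binding was not measured.

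The values are read densities, which are reads per nt of a feature scaled by the authors so that the reads over genes have the same total in every library. Libraries held 20102931 to 27498217 reads over all features. On this scale the median gene was itself higher than in wild type, by a log2 of 0.37 and 0.30 with FU and 0.45 and 0.45 in rrp6 at 40 and 100 min, so changes of the 31 CUTs are also given relative to it. RRP6 had densities of 1.96 and 1.72 with FU, 0.0675 and 0.0781 in rrp6 and 1.30 and 1.07 in wild type at 40 min. At 100 min it had 1.49 and 1.17 with FU, 0.0507 and 0.0696 in rrp6 and 0.951 and 0.868 in wild type. Its log2 fold change in rrp6 was -3.81 and -3.69, which fits the labels of all 4 mutant libraries. Replicate 2 of both FU and wild type at 40 min stood apart, with 20.86% and 20.24% of reads in snoRNAs, against 9.99% to 15.37% in the other 10 libraries. The median of the CUTs past snoRNAs was also higher in these libraries than in replicate 1 of their groups, and how far the 2 facts are linked was not tested. In RNA from a whole culture, more RNA in every cell and more cells with the RNA cannot be told apart. Nor can a separate CUT be told apart from the tail of a 3′ extended snoRNA, since both give reads in the same interval.

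All 31 CUTs past snoRNAs rose in the rrp6 mutant at both times. At 40 min, 31 of 31 were called higher (limma, Benjamini-Hochberg adjusted p under 0.05 over 11485 features), where 54.2% of all features and 96.2% of the other 892 CUTs (858) were called higher. At 100 min again 31 of 31 were called higher, against 57.1% of all features and 95.5% of the other CUTs (852). Being called higher was thus shared by nearly all CUTs. CUTs are a class already known to be kept in yeast that lacks Rrp6. The count of 31 of 31 is therefore no independent finding about the CUTs past snoRNAs. Their median log2 fold change was 6.55 at 40 min and 6.38 at 100 min, or 6.1 and 5.93 above the median gene. The other 892 CUTs had medians of 2.90 and 3.03, and all features together 0.89 and 0.99. Both rrp6 libraries lay above both wild-type libraries for all 31 CUTs at each time, as they did for 70.8% and 78.7% of all features.

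**Figure D1:**
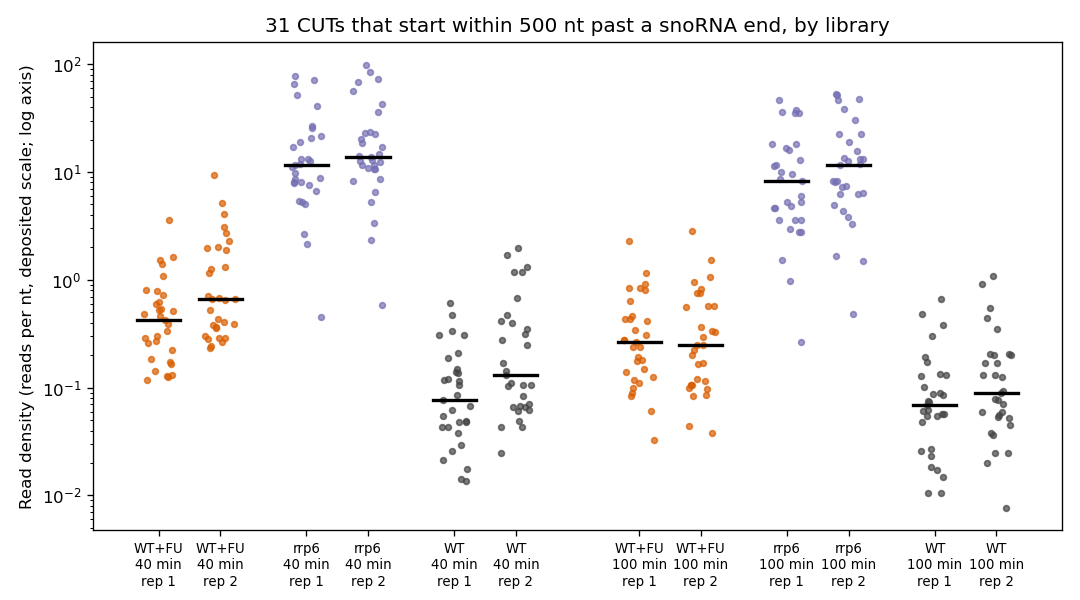
Read density (reads per nt, log axis) of the 31 CUTs in each of the 12 libraries, by group and time. Each dot is 1 CUT and each bar the median of a library. Medians were 0.421 and 0.659 with FU, 11.7 and 13.8 in rrp6 and 0.0765 and 0.131 in wild type at 40 min, and every rrp6 median lies above every other.

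The largest change at 40 min was that of CUT307, which starts 390 nt past SNR11, an H/ACA snoRNA, on chromosome 13 (652922 to 653050, plus strand). At 40 min its density was 0.600 and 0.521 reads per nt in the FU libraries, 25.9 and 42.7 in the rrp6 libraries and 0.0376 and 0.0698 in wild type. At 100 min it was 0.419 and 0.168 with FU, 18.1 and 30.6 in rrp6 and 0.0756 and 0.0712 in wild type. The mutant libraries stood far above all others, the FU libraries lay between, and no groups overlapped at either time. Its log2 fold change in rrp6 was 9.03 ± 0.44 (SE, adjusted p = 7.68e-06) at 40 min and 8.11 ± 0.44 (SE, adjusted p = 8.83e-06) at 100 min. CUT137 lies 282 nt past SNR10, an H/ACA snoRNA that is also needed for early cleavage of the rRNA precursor. It had 0.388 and 0.671 reads per nt in the FU libraries, 26.8 and 36.3 in the rrp6 libraries and 0.0295 and 0.109 in wild type at 40 min. Its densities at 100 min were 0.191 and 0.222 with FU, 16.7 and 22.6 in rrp6 and 0.0569 and 0.0536 in wild type. Again the 3 groups did not overlap, and in rrp6 the log2 fold change was 8.78 ± 0.45 (SE, adjusted p = 8.52e-06) and 8.17 ± 0.45 (SE, adjusted p = 9.01e-06) at 40 and 100 min.

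CUT433 follows SNR45, a box C/D snoRNA that guides acetylation of 18S rRNA, at 152 nt. Its density at 40 min was 0.537 and 1.96 reads per nt in the FU libraries, 70.8 and 84.6 in the rrp6 libraries and 0.150 and 0.398 in wild type, and at 100 min 0.429 and 0.569 with FU, 46.5 and 51.9 in rrp6 and 0.129 and 0.171 in wild type. FU replicate 1 and wild-type replicate 2 were close at 40 min, but all FU values exceeded all wild-type values at each time. The log2 fold change in rrp6 was 8.23 ± 0.57 (SE, adjusted p = 1.96e-05) at 40 min and 8.26 ± 0.57 (SE, adjusted p = 1.58e-05) at 100 min. CUT676, 295 nt past SNR128 (U14, a box C/D snoRNA needed for 18S rRNA), had 0.302 and 0.715 reads per nt in the FU libraries, 13.3 and 22.9 in the rrp6 libraries and 0.0430 and 0.0619 in wild type at 40 min. It differed from wild type in rrp6 by 8.10 ± 0.62 (SE, adjusted p = 2.89e-05) at 40 min and 7.28 ± 0.62 (SE, adjusted p = 3.40e-05) at 100 min. CUT681, 174 nt past the H/ACA snoRNA SNR37, and CUT342, 253 nt past the C/D snoRNA SNR66, rose by 7.79 and 7.77 on the log2 scale at 40 min and by 8.05 and 8.14 at 100 min.

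The most abundant of the 31 over all libraries was CUT180, a CUT of 105 nt that lies 226 nt past SNR71, a C/D snoRNA that guides methylation of 25S rRNA. At 40 min its density was 3.61 and 9.46 reads per nt in the FU libraries, 77.3 and 99.3 in the rrp6 libraries and 0.609 and 1.71 in wild type, and at 100 min 2.27 and 2.81 with FU, 37.8 and 53.2 in rrp6 and 0.659 and 1.09 in wild type. Wild-type replicate 2 was well above replicate 1 at 40 min, yet the groups did not overlap. In rrp6 the log2 fold change was 6.4 ± 0.54 (SE, adjusted p = 3.70e-05) and 5.70 ± 0.54 (SE, adjusted p = 5.16e-05). CUT150 past SNR48 (C/D), CUT306 past SNR11 and CUT221 past SNR3 (H/ACA) were the next most abundant besides CUT433. Their mean densities in rrp6 at 40 min were 69.4 ± 4.81, 60.2 ± 12.3 and 48.9 ± 11.2, against 0.691 ± 0.711, 1.15 ± 1.18 and 0.691 ± 0.678 in wild type (SD, n = 2 each). The wild-type replicates of these 3 CUTs were far apart at 40 min, with replicate 2 the higher one each time.

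CUT314, 145 nt past the C/D snoRNA SNR40, was the exception in size. At 40 min its density was 0.125 and 0.437 reads per nt in the FU libraries, 0.448 and 0.588 in the rrp6 libraries and 0.140 and 0.249 in wild type, and at 100 min 0.0829 and 0.105 with FU, 0.267 and 0.477 in rrp6 and 0.0626 and 0.0590 in wild type. FU overlapped wild type at 40 min, and the rrp6 libraries lay above both but close to FU replicate 2. In rrp6 its log2 fold change was 1.40 ± 0.52 (SE, adjusted p = 0.045) at 40 min and 2.34 ± 0.52 (SE, adjusted p = 0.004) at 100 min, and the call at 40 min was lost under median of ratios scaling (adjusted p = 0.25). With 1 library left out, its adjusted p at 40 min ranged from 0.00756 to 0.183. In the mutant CUT314 was the lowest of the 31 at both times, with means of 0.518 ± 0.0986 and 0.372 ± 0.149 (SD, n = 2 each), although its wild-type density at 40 min was above the median of the 31. The next lowest mean changes over the 4 comparisons were those of CUT226, 49 nt past SNR64 (C/D), and CUT539, 92 nt past SNR84 (H/ACA). In rrp6 they rose by 4.76 and 5.62 at 40 min and by 4.87 and 4.87 at 100 min. Further members were CUT117, CUT350, CUT365, CUT447, CUT466, CUT789, CUT840, CUT841 and CUT853. In rrp6 at 40 min they changed by 5.60 to 7.82 on the log2 scale: CUT117 by 7.82, CUT350 by 5.94, CUT365 by 5.60, CUT447 by 5.71, CUT466 by 6.16, CUT789 by 6.88, CUT840 by 6.86, CUT841 by 6.76 and CUT853 by 7.11. CUT117 follows SNR4, a box C/D snoRNA that guides acetylation of 18S rRNA as SNR45 does. Apart from CUT314, the 31 lay between 4.71 and 9.03 at 40 min and between 4.87 and 8.26 at 100 min on the log2 scale.

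**Figure D2:**
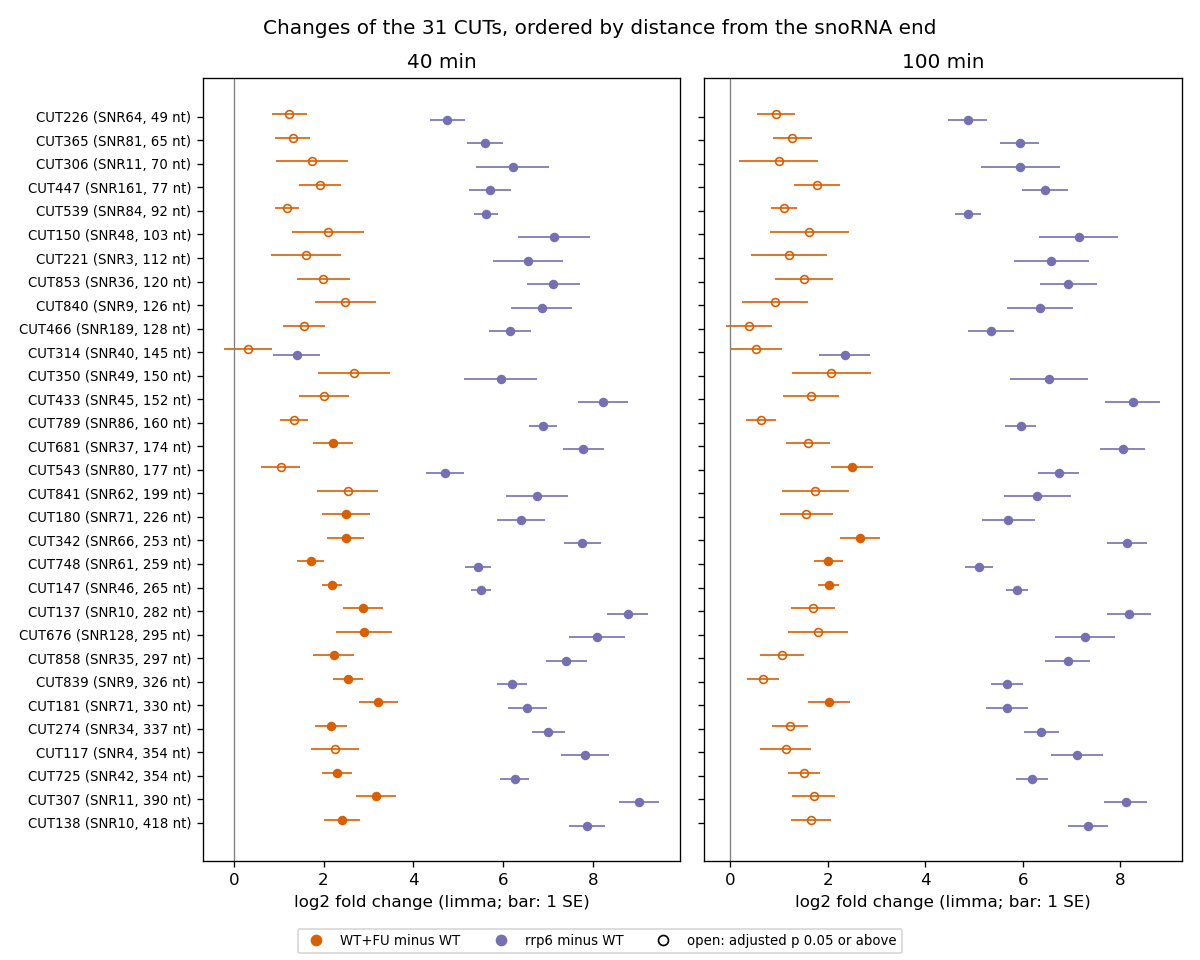
Log2 fold change (limma, bars 1 SE) of each CUT with FU and in rrp6 against wild type, at 40 min and 100 min, ordered from the nearest to the farthest from the snoRNA end; filled dots have an adjusted p under 0.05. All rrp6 dots are filled and all but CUT314 lie above 4.7. The filled FU dots at 40 min lie among the CUTs 174 nt or more from the snoRNA.

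With FU many of the same CUTs rose too, by less than in rrp6. At 40 min, 14 of 31 were called higher and 0 lower, where 2.54% of all features were called higher and 0.235% lower. At 100 min, 5 of 31 were called higher and 0 lower, against 1.74% and 0.409% of all features. The median log2 fold change was 2.19 at 40 min and 1.56 at 100 min, or 1.82 and 1.26 above the median gene. Of the other 892 CUTs, 57 (6.39%) were called higher at 40 min and 11 (1.23%) at 100 min, with medians of 0.80 and 0.51. Both FU libraries exceeded both wild-type libraries for 27 of the 31 CUTs at 40 min and 30 at 100 min, as they did for 43.2% and 55.6% of all features. In all, 15 CUTs were called at one time or the other and 4 at both: CUT147, CUT181, CUT342 and CUT748.

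CUT147, 265 nt past the H/ACA snoRNA SNR46, had the lowest adjusted p of the 31 with FU at both times. At 40 min its density was 1.62 and 2.00 reads per nt in the FU libraries, 17.2 and 18.7 in the rrp6 libraries and 0.309 and 0.476 in wild type, and at 100 min 0.921 and 0.753 with FU, 11.5 and 13.3 in rrp6 and 0.191 and 0.204 in wild type. Within each time the 3 groups did not overlap. With FU its log2 fold change was 2.19 ± 0.22 (SE, adjusted p = 0.0108) at 40 min and 2.01 ± 0.22 (SE, adjusted p = 0.0038) at 100 min. CUT181, the second CUT past SNR71, had 0.731 and 1.33 reads per nt in the FU libraries, 7.91 and 12.5 in the rrp6 libraries and 0.0677 and 0.131 in wild type at 40 min. Its densities at 100 min were 0.434 and 0.367 with FU, 3.60 and 7.49 in rrp6 and 0.0859 and 0.0930 in wild type. The FU libraries lay above wild type and below the mutant at both times. Of the 31, CUT181 had the largest change with FU at 40 min, 3.22 ± 0.43 (SE, adjusted p = 0.0239), and at 100 min it changed by 2.02 ± 0.43 (SE, adjusted p = 0.0494).

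CUT342 past SNR66 had 0.334 and 0.361 reads per nt in the FU libraries, 13.3 and 14.6 in the rrp6 libraries and 0.0616 and 0.0435 in wild type at 40 min. Its densities at 100 min were 0.276 and 0.165 with FU, 8.59 and 12 in rrp6 and 0.0106 and 0.0449 in wild type. Both FU pairs lay clear of wild type, where this CUT held few reads. It changed with FU by 2.49 ± 0.41 (SE, adjusted p = 0.0335) and 2.65 ± 0.41 (SE, adjusted p = 0.0148). CUT748, of 1097 nt the longest, lies 259 nt past SNR61 (C/D) and changed by 1.71 ± 0.30 (SE, adjusted p = 0.0378) and 2.00 ± 0.30 (SE, adjusted p = 0.0122). CUT543, 177 nt past the H/ACA snoRNA SNR80, was called with FU at 100 min only, where its density was 0.810 and 0.830 with FU, 12.9 and 18.9 in rrp6 and 0.0873 and 0.206 in wild type and its log2 fold change 2.50 ± 0.43 (SE, adjusted p = 0.0214). At 40 min its densities were 0.796 and 1.26 with FU against 0.338 and 0.677 in wild type, a log2 fold change of 1.04 ± 0.43 (SE, adjusted p = 0.153), and its FU by time interaction was not called (1.46 ± 0.60, SE, adjusted p = 0.668).

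The other 10 CUTs called with FU at 40 min were CUT839, CUT307, CUT725, CUT137, CUT274, CUT138, CUT681, CUT858, CUT676 and CUT180, with log2 fold changes between 2.16 and 3.16. They follow SNR9, SNR11, SNR42, SNR10, SNR34, SNR10, SNR37, SNR35, SNR128 and SNR71, of which SNR35 guides the first step of a hypermodified base of 18S rRNA and SNR9, SNR34, SNR37 and SNR42 are H/ACA guides too. The 4 abundant CUTs close to a snoRNA end, CUT306, CUT150, CUT221 and CUT433, had changes of 1.74, 2.11, 1.61 and 2.01 at 40 min with SEs of 0.57 to 0.81, and none passed the test. The calls depended on single libraries. None of the 14 calls at 40 min held when each of the 12 libraries was left out in turn. The median change of all CUTs past snoRNAs, relative to the median gene, then ranged from 0.99 to 2.57. Without replicate 2 of both FU and wild type at 40 min, the median change of all CUTs past snoRNAs stood 1.93 above the median gene. The same alternative, which leaves the 100 min libraries as they are, called 26 at 100 min, where it called 21.9% of all features. Of the 5 calls at 100 min, that of CUT147 held without any 1 library, and the count was 1 without either FU library of that time. Under median of ratios scaling the counts were 0 and 2, where 0.0435% and 1.04% of all features were called.

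Pair by pair, the median change of the CUTs was above the median gene by 1.93 for FU replicate 1 against wild-type replicate 1 at 40 min, on the log2 scale, and 1.60 for replicate 2 against replicate 2. FU replicate 1 against wild-type replicate 2 gave 0.34, with 27 of 31 CUTs higher, and FU replicate 2 against wild-type replicate 1 gave 3.15, with 31 higher. At 100 min the 4 pairs gave 0.65 to 1.58, with 30 or 31 CUTs higher. In rrp6 the pairs gave 5.25 to 7.21, with all 31 higher in each. The median was thus higher in every pair of libraries, while the size with FU at 40 min depended on which libraries were set against each other.

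Set against each other, FU and rrp6 left the CUTs at different levels. FU libraries were lower than rrp6 libraries in 30 of 31 CUTs at 40 min and 31 of 31 at 100 min by the same fit, where 32.7% and 41.3% of all features were called lower. Most of the other 892 CUTs were called lower too, 776 (87.0%) at 40 min and 822 (92.2%) at 100 min. Their median log2 differences were -2.11 and -2.51. Both FU libraries lay below both rrp6 libraries for 31 of 31 CUTs at each time, as they did for 53.6% and 65.1% of all features. The median log2 difference of the 31 CUTs, FU minus rrp6, was -4.47 at 40 min and -5.01 at 100 min. CUT314 was the exception at 40 min, with a difference of -1.08 ± 0.52 (SE, adjusted p = 0.145). In reads, the 31 CUTs took up 10.5% and 12.7% of all reads over CUTs in the FU libraries at 40 min, 37.9% and 41.5% in rrp6 and 3.40% and 6.59% in wild type. At 100 min these shares were 7.92% and 8.64% with FU, 31.1% and 34.4% in rrp6 and 3.33% and 4.52% in wild type. The shares did not overlap between groups at either time.

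Few of the CUTs past snoRNAs passed the test of a change between 40 and 100 min, though most were lower at the later time with FU and in rrp6. Both libraries of 100 min lay below both of 40 min for 25 of 31 CUTs with FU, 23 in rrp6 and 8 in wild type, as they did for 32.7%, 37.0% and 26.8% of all features. In rrp6, 0 of 31 were called (1.86% of all features were called in either direction), and in wild type 0 of 31 (2.37%). With FU, 2 of 31 were called lower at 100 min, where 2.64% of all features were. At an unadjusted p under 0.05 the counts were 5 in rrp6, 7 in wild type and 17 with FU. The same p held for 2006, 1972 and 2771 of all 11485 features in that order. Limma-voom on the recovered reads called 2 of the CUTs in rrp6, 0 in wild type and 2 with FU. The median log2 change, 100 minus 40 min, was -1.10 with FU, -0.66 in rrp6 and -0.33 in wild type. The 2 called with FU were CUT839 past SNR9, with 0.0324 and 0.0436 reads per nt at 100 min and 0.119 and 0.235 at 40 min, and CUT147. CUT839 changed by -1.85 ± 0.33 (SE, adjusted p = 0.0235) and CUT147 by -1.10 ± 0.22 (SE, adjusted p = 0.0311), and the count was 0 without any 1 rrp6 library, either FU library of 100 min or FU replicate 2 of 40 min. No CUT passed the test of an FU by time interaction (0.104% of all features did) or an rrp6 by time interaction (0.0784%). At an unadjusted p under 0.05 these counts were 3 and 1, against 843 and 877 of 11485 features, and limma-voom called 0 CUTs in both.

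Wild-type density was lower the farther a CUT lay from its snoRNA, a trend that was weaker in the mutant. Across the 31 CUTs, Spearman's rho of distance with mean density at 40 min was -0.38 with FU, -0.15 in rrp6 and -0.63 in wild type. At 100 min it was -0.32, -0.11 and -0.46 in the same order. The 12 CUTs within 150 nt had a median density of 0.877 with FU, 11.6 in rrp6 and 0.219 in wild type at 40 min. The 12 CUTs farther out, up to 300 nt, had 0.519, 16.2 and 0.0947, and the 7 beyond 300 nt had 0.321, 9.80 and 0.0537. With FU at 40 min, 0 of the 12 nearest, 8 of the 12 at middle distance and 6 of the 7 farthest CUTs were called, and at 100 min 0, 4 and 1. This pattern rests on the fit. With a replicate block within time the counts at 40 min were 11, 12 and 7, where 9.39% of all features were called. By an unadjusted p under 0.05 they were 9, 12 and 7, against 3230 of 11485 features. Distance correlated with the log2 fold change at 40 min with a rho of 0.64 for FU and 0.46 for rrp6. At 100 min the correlation was weaker, with a rho of 0.29 for FU and 0.30 for rrp6. The nearest CUTs also had the larger SEs in several cases, such as CUT306 and CUT150 at 0.81, and the part of this in the calls was not tested. CUTs that share a snoRNA or abut are not independent points.

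Where CUTs follow each other past 1 snoRNA within 1000 nt, as at 7 loci, their densities can be compared within a locus. Past SNR11, CUT307 at 390 nt had 43.0% and 10.2% of the density of CUT306 at 70 nt in the FU libraries at 40 min, 50.2% and 61.9% in rrp6 and 12.1% and 3.52% in wild type. At 100 min it had 36.1% and 11.1% with FU, 50.05% and 64.5% in rrp6 and 15.8% and 7.83% in wild type. The mutant shares lay above all others at both times, and FU replicate 2 overlapped wild type. Past SNR3, CUT222 at 520 nt had 58.5% and 19.9% of CUT221 with FU, 65.6% and 70.3% in rrp6 and 9.21% and 8.92% in wild type at 40 min. CUT223, farther on at 768 nt, had 52.1% and 17.7%, 31% and 36.6% and 5.94% and 6.19% of CUT221 in the same order. Past SNR3 both FU and rrp6 lay above wild type, and FU replicate 1 exceeded both mutant libraries at CUT223. The other 5 loci differed. Past SNR71, CUT181 had 20.2% and 14% of CUT180 with FU, 10.2% and 12.5% in rrp6 and 11.1% and 7.62% in wild type at 40 min. Past SNR9, CUT839 had 23.3% and 12.4% of CUT840 with FU, 10.1% and 11.6% in rrp6 and 18.5% and 7.04% in wild type. Past SNR10, CUT138 had 48.0% and 42.1% of CUT137 with FU, 32.5% and 35.4% in rrp6 and 72.4% and 44.8% in wild type. At these 3 loci the mutant shares at 40 min overlapped wild type at SNR71 and SNR9 and lay below both other groups at SNR10. FU lay above both other groups at SNR71 at 40 min. Neither separation was seen at 100 min. There CUT138 had 28.9% and 36.6% of CUT137 in rrp6 and 32.3% and 71.1% in wild type. CUT181 had 19.1% and 13.1% of CUT180 with FU and 9.52% and 14.1% in rrp6. At 40 min, past SNR42, CUT724 at 602 nt had 17.4% and 33.6% of CUT725 with FU, 16.9% and 17.4% in rrp6 and 17.8% and 71.0% in wild type. Past SNR66, CUT343 at 932 nt had 67.7% and 108.4% of CUT342 with FU, 27.1% and 30.1% in rrp6 and 40.8% and 328.6% in wild type. CUT343 held only 5 and 23 reads in wild type at 40 min, so its wild-type shares are imprecise. At both loci the mutant shares lay below both wild-type libraries, and past SNR66 the farther CUT was the denser one in 1 FU and 1 wild-type library. The pattern at SNR11 and SNR3 thus did not hold at the other loci.

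**Figure D3:**
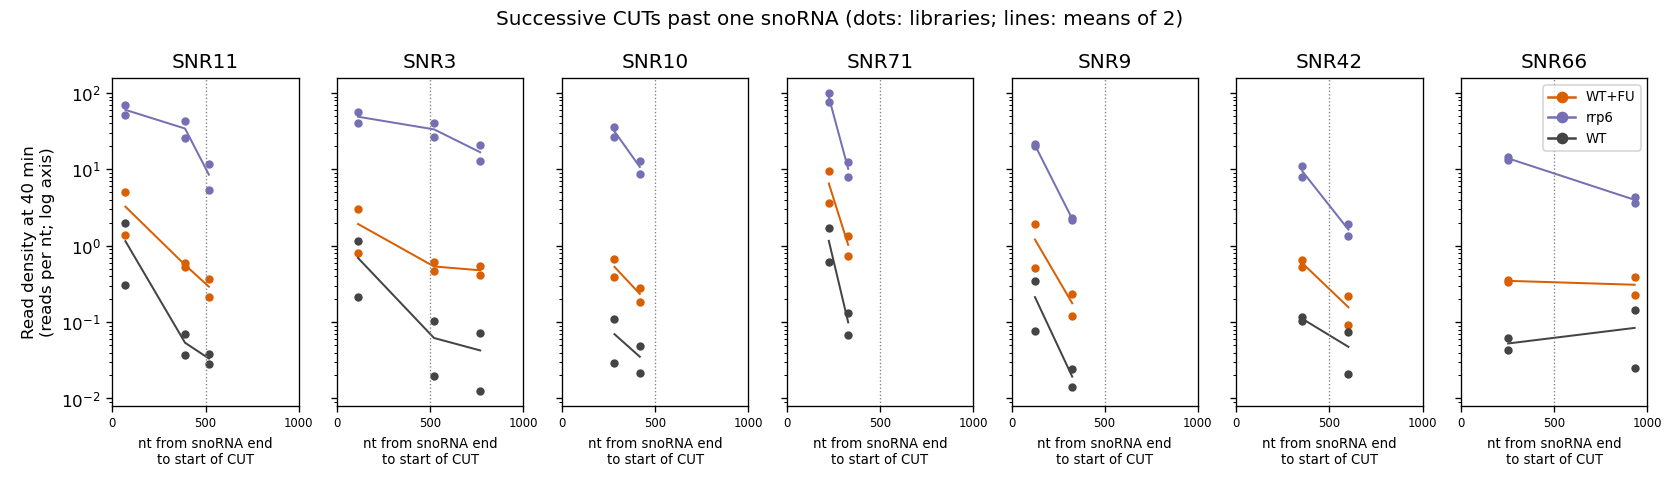
Read density at 40 min (reads per nt, log axis) of successive CUTs against the distance of their 5′ ends from the end of SNR11, SNR3, SNR10, SNR71, SNR9, SNR42 or SNR66. Dots are libraries, lines join the means of 2, and the dotted line marks 500 nt. By the means, the second CUT had 56.9% of the first in rrp6 and 4.68% in wild type at SNR11, 68.4% and 8.96% at SNR3, 11.5% and 8.54% at SNR71, and 10.8% and 9.10% at SNR9. At SNR10 (34.2% and 50.7%), SNR42 (17.2% and 42.9%) and SNR66 (28.6% and 159.9%) the rrp6 line falls more.

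The 500 nt limit falls within these rows of CUTs. The farthest CUTs inside it were CUT307 at 390 nt and CUT138 at 418 nt, and the nearest outside were CUT308, 518 nt past SNR11, and CUT222. CUT308 had 0.371 and 0.212 reads per nt in the FU libraries, 5.31 and 11.8 in the rrp6 libraries and 0.0284 and 0.0383 in wild type at 40 min, and CUT222 had 0.463 and 0.608 reads per nt in the FU libraries, 26.9 and 40.0 in the rrp6 libraries and 0.0195 and 0.104 in wild type. Both had the order of groups seen in CUT307, with FU between the mutant and wild type.

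The snoRNAs upstream behaved differently from the CUTs. With FU, 0 of 27 were called at either time, where 2.78% and 2.15% of all features were called in either direction. At each time 1 of the 27 was below an unadjusted p of 0.05, against 3230 and 2537 of 11485 features, and limma-voom called 0. In rrp6, 9 were called higher and 3 lower at 40 min, and 11 higher and 2 lower at 100 min, against 54.2% and 57.1% of features higher and 2.85% and 2.8% lower. The higher ones were mostly C/D snoRNAs: 7 of 10 at 40 min and 8 of 10 at 100 min, with medians of 3.21 and 2.94. Of the 17 H/ACA snoRNAs, 2 were called higher and 3 lower at 40 min, and 3 higher and 2 lower at 100 min, with a median near 0 at 40 min and of -0.09 at 100 min. Under median of ratios scaling, which puts the median gene at a log2 of -0.01 in rrp6, 6 snoRNAs were higher and 3 lower at 40 min and 7 higher and 3 lower at 100 min. SNR48 (C/D) had 1.55 and 11.0 reads per nt in the FU libraries, 82.0 and 92.2 in the rrp6 libraries and 0.680 and 4.81 in wild type at 40 min, and its log2 fold change in rrp6 was 5.57 ± 0.96 (SE, adjusted p = 0.0011). Replicate 2 of FU and wild type was several times replicate 1, yet the mutant values lay above all 4. SNR62 (C/D) changed by 4.69 ± 0.41 (SE, adjusted p = 4.25e-05) and SNR71 by 4.99 ± 0.86 (SE, adjusted p = 0.00111). SNR128 (U14) had 32.1 and 207 reads per nt in the FU libraries, 183 and 216 in the rrp6 libraries and 37.3 and 85.0 in wild type at 40 min and passed the test in rrp6 at 100 min (1.99 ± 0.72, SE, adjusted p = 0.0384, lost under median of ratios scaling) but not at 40 min (1.82 ± 0.72, SE, adjusted p = 0.0554).

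The longest of the 27 snoRNAs, SNR86 and SNR84, were lower in the mutant. SNR86, an H/ACA snoRNA of 1004 nt, had 104 and 161 reads per nt in the FU libraries, 41.6 and 52.8 in the rrp6 libraries and 115 and 187 in wild type at 40 min, with no overlap between rrp6 and the other groups. Its log2 fold change in rrp6 was -1.65 ± 0.34 (SE, adjusted p = 0.00297) at 40 min and -2.38 ± 0.34 (SE, adjusted p = 3.79e-04) at 100 min, and CUT789 past it changed by 6.88 and 5.96. SNR84, of 550 nt, changed by -1.59 ± 0.35 (SE, adjusted p = 0.00386) and -1.91 ± 0.35 (SE, adjusted p = 0.00132). Across the 27 snoRNAs, Spearman's rho of length with log2 fold change was -0.84 and -0.87 in rrp6 at 40 and 100 min, and -0.91 and -0.89 with FU, where no snoRNA was called. Box class and length move together here, since the C/D snoRNAs were 86 to 186 nt long and the H/ACA 161 to 1004 nt. At 40 min the median density of the 10 C/D snoRNAs was 14.2 with FU, 88.9 in rrp6 and 6.36 in wild type, and that of the 17 H/ACA snoRNAs was 79.5, 65.3 and 85.9. The part that recovery of short RNAs in the libraries has in these values was not tested. The changes of a CUT and of its own snoRNA had, across the 31 pairs, a rho of 0.18 for FU and -0.04 for rrp6 at 40 min, and 0.45 and 0.11 at 100 min.

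**Figure D4:**
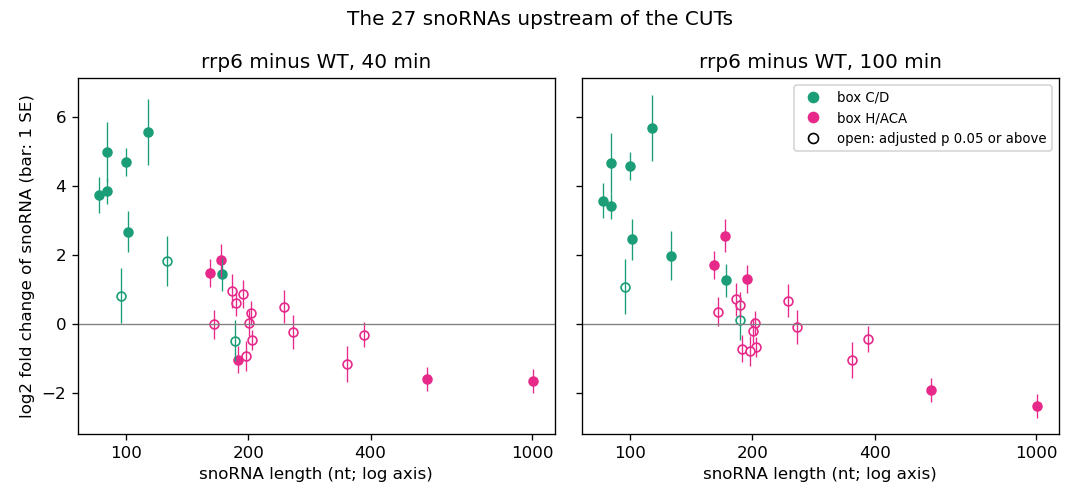
Log2 fold change in rrp6 against wild type (limma, bars 1 SE) of the 27 snoRNAs upstream of the CUTs, against their length in nt on a log axis, at 40 min and 100 min; filled dots have an adjusted p under 0.05. The highest are C/D snoRNAs of at most 113 nt, and SNR84 (550 nt) and SNR86 (1004 nt) lie lowest.

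Measured against its own snoRNA, each CUT was higher in rrp6. The density of a CUT as a percent of that of its snoRNA had a median over the 31 of 1.37% and 1.22% in the FU libraries at 40 min, 19.8% and 23.5% in rrp6 and 0.222% and 0.439% in wild type. At 100 min the medians were 0.774% and 0.873% with FU, 15.6% and 20.6% in rrp6 and 0.190% and 0.414% in wild type. Both rrp6 libraries exceeded both wild-type libraries in this share for 31 of 31 CUTs at each time. When the density of every feature was divided by the median density of these snoRNAs in its library, both rrp6 libraries exceeded both wild-type ones for 42.4% and 60.7% of all features. With FU the count was 28 of 31 at 40 min and 29 of 31 at 100 min, against 28.6% and 31.4%. The median ratio of the shares to wild type was 3.81 and 2.50 with FU and 79.1 and 66.7 in rrp6. In rrp6, 19 and 22 of the 31 CUTs reached over 10% of the snoRNA at 40 min, against 3 and 4 in wild type.

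The pairs differed widely. CUT307 had 0.371% and 0.124% of the density of SNR11 in the FU libraries at 40 min, 9.95% and 16.7% in rrp6 and 0.0188% and 0.0154% in wild type. Its share showed the largest ratio of rrp6 to wild type, 778. CUT180 had 86.6% and 43.6% of SNR71 with FU, 75.3% and 77.3% in rrp6 and 41.0% and 19.7% in wild type, so that 1 FU library exceeded both mutant libraries. CUT150 had 70.2% and 37.0% of SNR48 with FU, 80.5% and 78.9% in rrp6 and 27.7% and 24.8% in wild type. CUT681 had 3.29% and 4.24% of SNR37 in rrp6 and 0.00794% and 0.0173% in wild type, SNR37 having the highest density of the 27. For CUT314 the shares of SNR40 were 1.37% and 0.703% with FU, 1.73% and 1.90% in rrp6 and 1.59% and 0.859% in wild type, where FU and wild type overlapped and the mutant barely exceeded wild type.

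**Figure D5:**
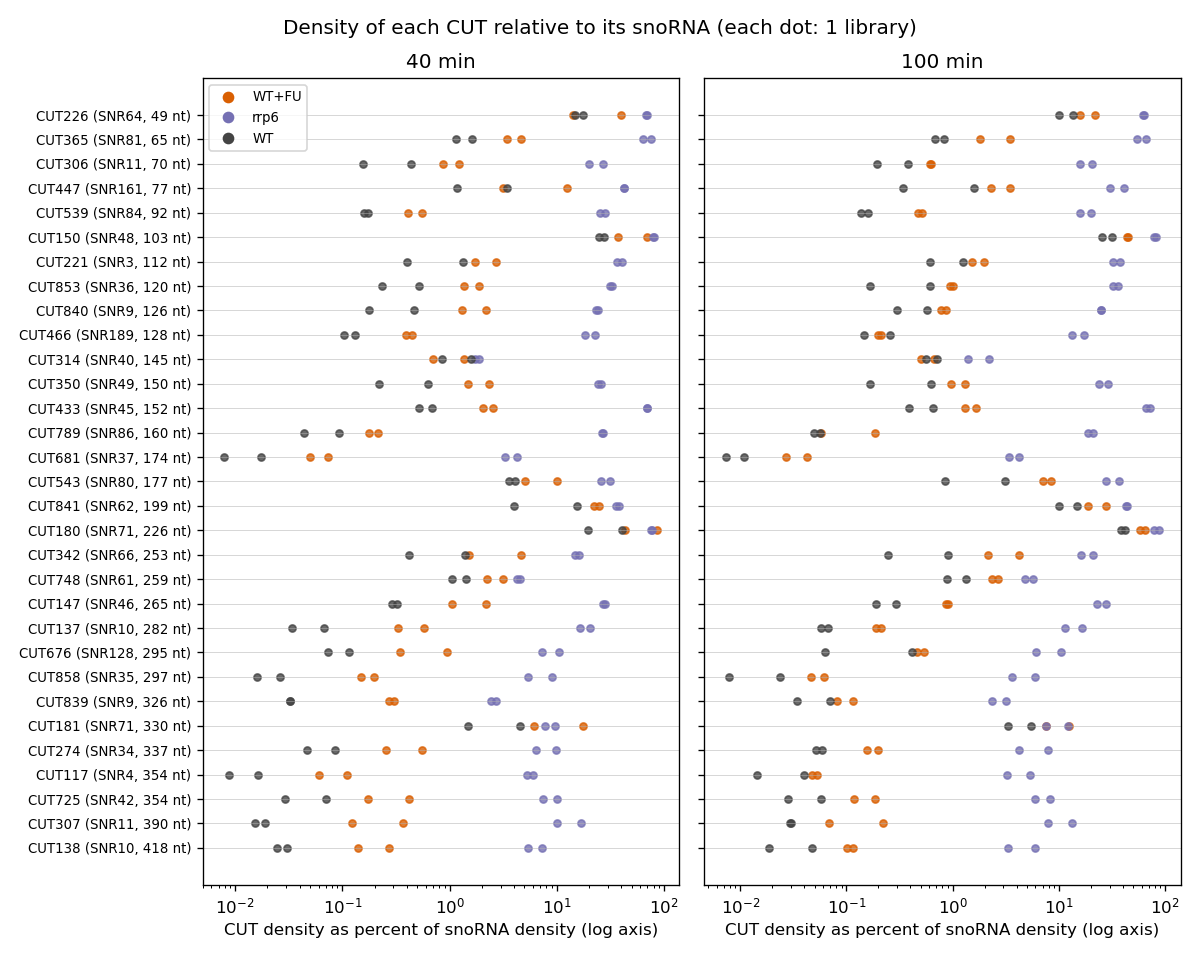
Density of each CUT as a percent of the density of its snoRNA (log axis), at 40 min and 100 min, ordered by distance from the snoRNA end; each dot is 1 library. Medians of the 31 CUTs at 40 min were 1.37% and 1.22% with FU, 19.8% and 23.5% in rrp6 and 0.222% and 0.439% in wild type. CUT314 had the smallest ratio of rrp6 to wild type at 40 min, 1.48.

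Of the 17 genes opposite the CUTs, no gene passed the test with FU at 40 min, and limma-voom called 0. Of the 17, 5 were below an unadjusted p of 0.05, against 1440 of all 5725 genes. At 100 min KTR2, a mannosyltransferase gene opposite CUT725, passed with FU (0.98 ± 0.21, SE, adjusted p = 0.049), but not under median of ratios scaling or with limma-voom. In rrp6 at 40 min 5 were higher and 5 lower, and at 100 min 5 higher and 3 lower. Of all 5725 genes tested, 32.3% were higher and 5.26% lower at 40 min and 34.5% and 5.15% at 100 min (of all features 54.2% and 2.85%, and 57.1% and 2.8%). The share of the 17 called higher, 29.4% at each time, was thus close to that of all genes. Their share called lower, 29.4% at 40 min and 17.6% at 100 min, was above that of all genes. Under median of ratios scaling 4 of the 17 were higher and 6 lower at 40 min, and 4 higher and 5 lower at 100 min. In rrp6 KTR2 changed by 1.95 ± 0.21 (SE, adjusted p = 9.58e-05) and 1.81 ± 0.21 (SE, adjusted p = 1.16e-04). PMD1, opposite CUT117, changed by 1.48 ± 0.17 (SE, adjusted p = 1.57e-04) and 1.81 ± 0.17 (SE, adjusted p = 5.59e-05), and ODC2, a mitochondrial carrier gene opposite CUT858, by 1.10 ± 0.23 (SE, adjusted p = 0.00299) and 2.01 ± 0.23 (SE, adjusted p = 1.12e-04). In the other direction, SER1, a serine synthesis gene opposite CUT853, changed by -1.89 ± 0.41 (SE, adjusted p = 0.00362) and -1.22 ± 0.41 (SE, adjusted p = 0.0272), CMC4 opposite CUT306 by -2.10 ± 0.38 (SE, adjusted p = 0.00148) and -1.01 ± 0.38 (SE, adjusted p = 0.0456), and LIN1 opposite CUT180 and CUT181 by -1.43 ± 0.32 (SE, adjusted p = 0.00473) and -1.02 ± 0.32 (SE, adjusted p = 0.0219). The libraries were strand-specific, and the read counts show that features were counted by strand. CUT181 (411647 to 412327) lies wholly within LIN1 (411384 to 412406) on chromosome 8. In the rrp6 libraries at 40 min CUT181 held 7576 and 11879 reads, while LIN1, on the other strand, held 74 and 43.

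Genes for the factors that end and trim these RNAs were counted against all genes, of which 32.3% were called higher in rrp6 at 40 min and 34.5% at 100 min (of all features 54.2% and 57.1%). Of 10 termination genes, 0 were called with FU at either time, and 7 were higher and 0 lower in rrp6 at each time. With FU, 6 at 40 min and 0 at 100 min were below an unadjusted p of 0.05, against 1440 and 1251 of 5725 genes. Limma-voom called 0 of the 10 at both. Under median of ratios scaling, 5 were higher and 1 lower in rrp6 at 40 min and 5 higher and 0 lower at 100 min. NRD1 had 0.853 and 1.2 reads per nt in the FU libraries, 3.36 and 4.14 in the rrp6 libraries and 0.538 and 0.422 in wild type at 40 min. Its densities at 100 min were 0.336 and 0.379 with FU, 1.76 and 2.42 in rrp6 and 0.263 and 0.234 in wild type. The mutant values lay above all others, and the log2 fold change was 2.94 ± 0.24 (SE, adjusted p = 3.31e-05) at 40 min and 3.0 ± 0.24 (SE, adjusted p = 2.50e-05) at 100 min in rrp6. Nrd1 is known to end its own mRNA early in budding yeast. With FU at 40 min NRD1 had a log2 fold change of 1.07 ± 0.24 (SE, adjusted p = 0.051). SEN1 changed in rrp6 by 1.42 and 1.39, and PCF11, which links cleavage factors to the polymerase, by 1.26 and 1.27. Of 24 genes for the exosome, its cofactors and snoRNA 3′ processing, 0 were called with FU by either tool. Below an unadjusted p of 0.05 were 18 at 40 min and 8 at 100 min, against 1440 and 1251 of 5725 genes. In rrp6 15 of the 24 were higher at 40 min and 11 at 100 min, with RRP6 itself the only one lower. This count rests on the scaling: under median of ratios scaling 2 were higher and 1 lower at 40 min and 3 higher and 2 lower at 100 min. AIR2, an RNA-binding subunit of TRAMP, changed by 1.68 ± 0.24 (SE, adjusted p = 4.04e-04) and 1.66 ± 0.24 (SE, adjusted p = 3.92e-04), and RRP43, a subunit of the exosome ring, by 0.99 and 1.04. The calls of RRP43 and NGL2 at 40 min were lost under median of ratios scaling. NGL2, a gene for an RNA-processing nuclease, changed by 1.01 and 1.21. Of 8 genes for the core proteins of snoRNPs, NOP1, the methyltransferase of C/D snoRNPs, was called higher in rrp6 at 40 min (0.50 ± 0.15, SE, adjusted p = 0.0186), and 0 of the 8 in the other comparisons with wild type, where 0 were also below an unadjusted p of 0.05 or called by limma-voom. Under median of ratios scaling NOP1 was not higher at 40 min, and 2 of the 8 were lower at 100 min. With FU at 40 min the most abundant genes of the lists had log2 fold changes of 0.81 for NPL3, 0.07 for LHP1, 0.46 for MTR4, 0.28 for NOP10 and 0.34 for NOP1, and none passed the test. At 100 min they had 0.62, -0.32, -0.06, 0.22 and 0.14 in that order. The medians of the 3 lists at 40 min in rrp6 were 0.82, 0.18 and -0.32 relative to the median gene.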

How the data were processed

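Total RNA of 12 libraries was rRNA-depleted and sequenced as strand-specific paired-end reads, per the labels. The table deposited by the authors holds a scaled read density (unit: signal) for each feature in each library, and the submitters' processing notes name TopHat with no version. The counter and genome build are not stated. Whole reads could be recovered from 100% of the densities (tolerance 0.001), with gene reads scaled to a total of 14370740 in every library. Start and end of all 77 snoRNAs, and of 5757 of 5789 matched genes, equal those of R64. CUTs could not be compared with an annotation.

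The fit used log2(density + 0.01202), the added value being the 10th percentile of nonzero densities. Features at or above that value in at least 2 libraries were kept, 11485 of 12026, among them all 31 CUTs, so a fold change understates that of low features. A limma model (3.58.1, under R 4.3.3, variance trend on) was fitted with 1 mean for each of 6 groups over 12 libraries (6 residual degrees of freedom, median prior 3.14), with two-sided moderated tests and Benjamini-Hochberg adjustment over 11485 features in each comparison. The fit was tested on data simulated with independent replicates, which leaves out deviations that libraries share. A feature with adjusted p under 0.05 is called. Members, gene lists and tests were chosen with earlier results of these data known.

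Named CUTs were the 20 with the largest mean change among those called with both libraries beyond both wild-type libraries, the 5 most abundant and the 3 with the lowest mean change, 24 in all. Of the others, CUT147, CUT543, CUT748, CUT839, CUT789, CUT365 and CUT466, the opposite genes and the snoRNAs given singly were chosen after their values were seen. Pathway genes were named by smallest adjusted p. Reads per CUT ranged from 1 to 637 in wild type, and counting error alone makes the low values imprecise. Sequences came from RefSeq R64. Alternatives were other pseudocounts, no filter, median of ratios scaling, limma-voom on recovered reads, a replicate block, other distance windows and each library left out. Python 3.11.15 with pandas 2.3.3, NumPy 2.4.6, SciPy 1.17.1 and matplotlib 3.10.9 was used.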

Additional observations from a re-analysis of the deposited data

How the results depend on the processing

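All 31 CUTs stayed called higher in rrp6 at 100 min under every alternative on the same CUTs, and at least 30 of 31 at 40 min, where CUT314 was lost under some. Counts called with FU were far less stable. At 40 min 14 were called, but 2 with a pseudocount 10 times larger, 0 with median of ratios scaling, 4 with limma-voom and 0 to 23 with 1 library left out. At 100 min 5 were called, but 3 with the larger pseudocount, 2 with median of ratios scaling, 1 to 11 with 1 library left out and 26 without replicate 2 of both FU and wild type at 40 min. Within 250 nt of the snoRNA the rule kept fewer CUTs, and the counts were 2 and 1 with FU and 18 and 18 in rrp6 at 40 and 100 min, 17 and 18 for FU against rrp6, and 0 for time with FU. The calls lower at 100 min with FU were 2, and 0 with median of ratios scaling and 0 to 7 with 1 library left out. In wild type that count was 0, and 0 to 4 with 1 library left out. In rrp6 it was 0, and 2 with the larger pseudocount, 2 with limma-voom and 0 to 1 with 1 library left out.

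Same-numbered libraries shared no stated source, and each comparison has 2 pairs. Deviations of same-numbered libraries correlated by 0.869 between FU and wild type at 40 min and 0.351 at 100 min, and by 0.202 and -0.21 between rrp6 and wild type. With a replicate block within time the counts were 30 and 15 with FU at 40 and 100 min. This fit called 9.39% and 5.15% of all features there, against 2.78% and 2.15% in the fit as reported. For time its counts of CUTs were 2, 12 and 2 in wild type, with FU and in rrp6.

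Relative to the median gene, the median change with FU was 0.992 to 2.57 at 40 min and 0.863 to 1.41 at 100 min with 1 library left out, and 0.679 at 100 min with the larger pseudocount. In rrp6 it was 5.33 to 6.88 at 40 min and 5.61 to 6.30 at 100 min with 1 library left out, 5.10 at 100 min with the larger pseudocount, and 6.88 at 40 min without replicate 2 of both FU and wild type. CUT314 with FU at 40 min changed by 0.32, and turned to -0.042 with median of ratios scaling, -0.148 without replicate 2 of both FU and wild type at 40 min, and -0.54 to 1.175 with 1 library left out (below 0 without FU replicate 2 or wild-type replicate 1 of 40 min). The alternative that leaves out replicate 2 of both was chosen after seeing the data. Leaving out CUTs that overlap a gene or a snoRNA, tRNA or snRNA on their strand removed none. The causes of these shifts were not tested.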
